A study of Mus musculus with 71 samples.

Results

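Local chromatin loops, those whose anchor midpoints lay at least 20 kb and less than 100 kb apart, made up 690 of the 24244 loops (2.85%) called by H3K27ac HiChIP in mouse synovial sarcoma (SyS), and 5825 of its 41574 tags (14%). HiChIP joins proximity ligation of cut chromatin to immunoprecipitation, so that each tag is a pair of DNA ends found close together on chromatin carrying the chosen mark. The 2 tumors, hSS2 replicates 1 and 2 of a series of 71 samples, came from mice that expressed human SS18::SSX2 from the Rosa26 locus once Cre had acted, with TATCre protein injected into the hindlimb at 8 days of life, and there was no HiChIP of control tissue. Because injected TATCre acts on whichever cells it enters, the labels do not give the cell that each tumor arose from. A single merged loop list was available, in which no value is labelled with a tumor, so no replicate error was computed and the tumors were not tested against each other. Because the tumors were profiled in bulk, a contact present in fewer cells and a weaker contact in all cells cannot be told apart.

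SyS is a soft tissue sarcoma driven by a fusion of SS18, a subunit of the BAF chromatin remodeling complex, to the end of an SSX protein, which binds chromatin marked by Polycomb. H3K27ac marks active promoters and enhancers. Loops detected with it join promoters to distal elements, promoters to each other, or distal elements to each other, and loops as short as these usually lie within a single gene neighborhood, where a contact may stay inside 1 gene, reach the adjacent gene or pass over it. An anchor was counted as a promoter when it came within 2 kb of an annotated transcription start site (TSS).

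Before the values, 8 stretches of 200 bases are shown from anchors on which the results turn, to let promoter and distal sequence be compared. They were read from GRCm38, the build of the files, outside all annotated exons, with promoter stretches placed by the RefSeq promoter table. All are written 5′ to 3′, and capitals mark each CpG dinucleotide. The first is the stretch just upstream of the TSS of Bahcc1 (chr11:120232747-120232946, plus strand), which encodes a chromatin protein with a BAH domain, and the next lies inside the same gene at the other anchor of the strongest local loop (chr11:120261137-120261336, plus strand). The third is upstream of Irf2bpl (chr12:86884815-86885014, minus strand) and the fourth is from its distal partner (chr12:86801732-86801931, plus strand). The fifth and the sixth are distal anchors looped to the transcription factor genes Nfib (chr4:82536678-82536877, plus strand, in the gene body) and Sox1 (chr8:12330481-12330680, plus strand, intergenic). The last pair are the left anchor (chr15:85657181-85657380, plus strand) and the right anchor (chr15:85678553-85678752, plus strand) of the strongest loop with no promoter at either end.
Bahcc1 promoter: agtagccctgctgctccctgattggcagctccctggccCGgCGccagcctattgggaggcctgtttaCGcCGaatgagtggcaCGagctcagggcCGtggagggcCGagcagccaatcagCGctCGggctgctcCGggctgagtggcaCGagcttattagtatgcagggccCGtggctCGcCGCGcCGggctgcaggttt
Bahcc1 distal anchor: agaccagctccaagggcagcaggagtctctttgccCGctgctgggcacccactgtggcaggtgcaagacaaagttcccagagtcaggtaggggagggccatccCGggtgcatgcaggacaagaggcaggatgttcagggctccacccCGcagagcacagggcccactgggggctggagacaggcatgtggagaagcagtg
Irf2bpl promoter: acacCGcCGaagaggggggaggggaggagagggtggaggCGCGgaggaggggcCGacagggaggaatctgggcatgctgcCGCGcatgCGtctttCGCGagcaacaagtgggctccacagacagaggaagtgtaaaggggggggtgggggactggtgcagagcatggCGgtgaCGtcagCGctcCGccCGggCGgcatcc
Irf2bpl distal anchor: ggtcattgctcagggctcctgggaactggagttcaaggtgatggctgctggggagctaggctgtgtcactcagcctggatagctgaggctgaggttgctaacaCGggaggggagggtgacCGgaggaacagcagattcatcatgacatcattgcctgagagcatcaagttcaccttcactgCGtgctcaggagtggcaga
Nfib distal anchor: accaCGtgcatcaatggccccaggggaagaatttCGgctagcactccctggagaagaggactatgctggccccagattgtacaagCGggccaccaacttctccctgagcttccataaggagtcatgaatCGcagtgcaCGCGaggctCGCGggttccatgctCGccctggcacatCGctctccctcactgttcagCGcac
Sox1 distal anchor: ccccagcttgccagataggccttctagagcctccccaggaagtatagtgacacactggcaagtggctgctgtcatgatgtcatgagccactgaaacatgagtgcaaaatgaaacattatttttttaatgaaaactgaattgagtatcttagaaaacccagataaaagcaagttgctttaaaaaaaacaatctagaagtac
Left anchor without promoter: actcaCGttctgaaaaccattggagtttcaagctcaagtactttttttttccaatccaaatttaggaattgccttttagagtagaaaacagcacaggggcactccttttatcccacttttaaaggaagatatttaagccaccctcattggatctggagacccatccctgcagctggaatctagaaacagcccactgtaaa
Right anchor without promoter: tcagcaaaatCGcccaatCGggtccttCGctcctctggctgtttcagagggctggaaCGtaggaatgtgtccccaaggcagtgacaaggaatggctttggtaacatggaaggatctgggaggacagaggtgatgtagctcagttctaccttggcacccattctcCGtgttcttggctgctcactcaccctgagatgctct

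The Bahcc1 and Irf2bpl promoter stretches each held 16 CpG dinucleotides. The distal stretches looped to them held 3 each. The Nfib distal stretch held 11 and the Sox1 distal stretch held 0, so distal anchors were not uniformly poor in CpG. The left and the right anchor of the promoterless pair held 1 and 5.

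Over all 1053 distinct anchors of the local loops, promoter anchors had the higher median CpG content. Across whole anchors, the median ratio of observed to expected CpG was 0.568 (quartiles 0.467 to 0.681) at the 918 promoter anchors and 0.317 (0.246 to 0.407) at the 135 anchors without a promoter. Median GC content was 54.0% and 49.9%. The anchors differed little in width, with medians of 2.96 kb and 2.72 kb, and held a median of 6 and 5 sites of MboI (GATC), the enzyme that cut the chromatin. The anchors without a promoter elsewhere in the list had a lower median CpG ratio of 0.240 (0.179 to 0.321, 3750 anchors).

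**Figure D1:**
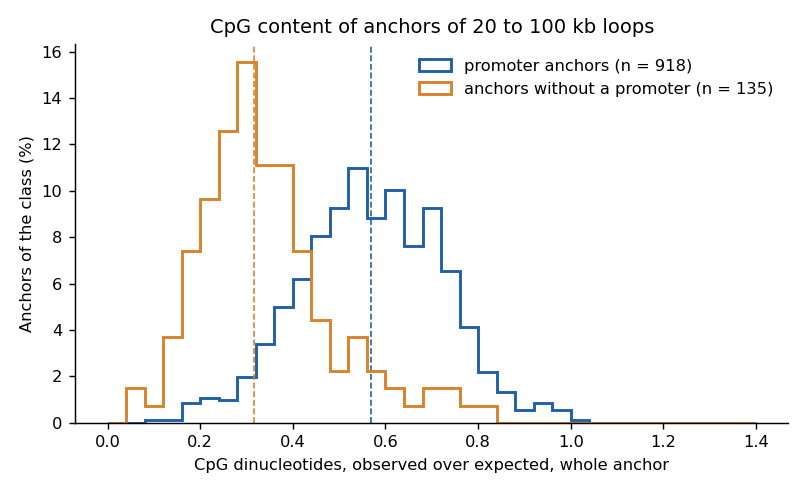
Distribution of the CpG ratio (observed over expected, whole anchor, x axis) as the share of anchors in percent (y axis) for the 918 promoter anchors and the 135 anchors without a promoter, with dashed lines at the medians of 0.568 and 0.317. The classes overlap, and some anchors without a promoter lie as high as promoter anchors.

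Motifs of enhancer-binding factors were searched by their letters on both strands in the central 1 kb of each anchor, a window of equal length for all. GGAATG, the core bound by TEAD factors, was present in 65 of 135 anchors without a promoter (48.1%, Wilson 95% interval 39.9 to 56.5) and in 300 of 918 promoter anchors (32.7%, 29.7 to 35.8), a difference of 15.5 percentage points (Newcombe 95% interval 6.65 to 24.3). TGANTCA, bound by AP-1, was present in 30 (22.2%) and 142 (15.5%) of them, a difference of 6.75 points (0.0852 to 14.8). Over all 16864 anchors of the list the shares were 37.0% for GGAATG and 17.5% for TGANTCA. Among anchors of other loops 43.9% without and 35.0% with a promoter held GGAATG, and 24.9% and 15.4% held TGANTCA, so the split was not limited to local loops. Over whole anchors of the local loops GGAATG was present in 80.0% and 77.2%. The central windows also differed in GC content, with medians of 50.7% and 59.3%, and the part of this in the motif shares was not tested. The overlap of these letters with other motifs was not assessed. A match describes these letters only. These intervals, like all others given here, cover counting error only, and loops that share anchors are not independent.

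The listed local loops had a median of 8 tags (quartiles 5 to 10, range 2 to 49), against 10 for the 554 loops under 20 kb and 1 for the 17796 loops of 100 kb to 1 Mb. The lowest count listed was 4, 2 and 1 tags for loops under 20 kb, of 20 to 100 kb and of 100 kb to 1 Mb, so the medians are those of loops past a floor that falls with span. Of the local loops, 232 (33.6%) had a false discovery rate (FDR) under 0.01 in the authors' caller, beside 15.2% of all loops. For loops under 20 kb it was 42.8%. An FDR under 0.001 was reached by 132 (19.1%), beside 8.06% of all loops and 26.5% of those under 20 kb. The caller's estimate depends on span, so these shares describe the list and were not tested.

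The list consisted of 2 parts, each sorted by position, which may be the tumors but are not assigned to them by the labels. If they are the tumors, every difference between the parts given here is one between tumors. The first part held 473 local loops with 5028 tags (median 9, range 6 to 49) and the second 217 with 797 tags (median 4, range 2 to 8). In both, the lowest count listed fell as span grew, from 8 tags at 20 to 30 kb to 6 at 80 to 100 kb in the first part, and from 4 to 2 in the second. Of the loops in the second part, 61 stood at its minimum of 2 tags. Median span was 43.4 kb and 60.2 kb. At the edges of the span range, a loop of 19.96 kb just outside had 9 tags and the Thra to Nr1d1 loop of 20.04 kb just inside had 4, while a loop of 99.96 kb had 3 tags and the Mrpl39 to Atp5j and Gabpa loop of 100.07 kb had 9.

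**Figure D2:**
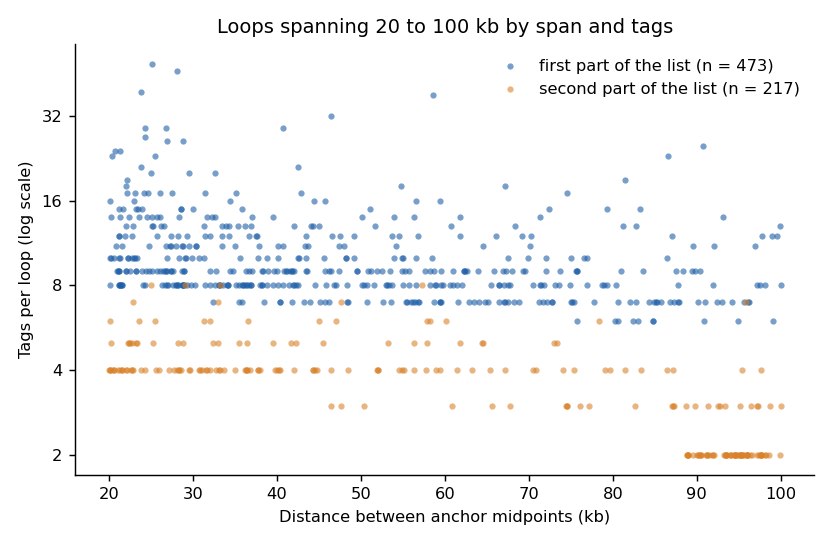
Each point is 1 local loop, placed by the distance between anchor midpoints (kb, x axis) and its tags (y axis, log scale), for the 473 loops of the first list part and the 217 of the second. The lower edge of each cloud steps down with distance, and loops of 2 tags occur in the second part alone.

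Most local loops joined promoters, as did most loops of the list. A promoter lay at both anchors of 530 loops (76.8%, 73.5 to 79.8), at one anchor of 136 (19.7%, 16.9 to 22.8) and at neither of 24 (3.48%, 2.35 to 5.12). The first class made up 74.0% of all loops of the list and 77.3% of loops of 1 Mb or more, so its share was not particular to local loops. The share of the first class less that of loops under 20 kb was -1.53 percentage points (Newcombe 95% interval -6.14 to 3.17), and less that of loops of 100 kb to 1 Mb it was 3.99 points (0.636 to 7.06). The latter difference was 2.52 points (-2.48 to 7.60) among loops of at least 4 tags. Within the list parts it was -0.0655 points (-3.83 to 3.19) and 2.07 points (-4.57 to 8.22). The list parts themselves differed, with promoters at both anchors in 82.5% (78.8 to 85.6) of local loops of the first and 64.5% (57.9 to 70.6) of the second. Median tags were 8 for loops with 2 promoters, 7 for those with 1 and 7 for those with none. In the first list part alone all 3 medians were 9, and in the second they were 4, 4 and 2 in the same order.

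The next counts follow in large part from the spans that define the classes, since a longer interval holds more TSSs, and describe the loops without being a finding about them. Among the 666 local loops with a promoter, 331 (49.7%, 45.9 to 53.5) spanned the TSS of at least 1 protein-coding gene that lay at neither anchor. The share was 7.13% under 20 kb (a difference of 42.6 points, 38.0 to 46.8) and 92.2% at 100 kb to 1 Mb (-42.5 points, -46.3 to -38.7). Local loops were thus split almost evenly between those that passed over a protein-coding TSS and those that did not. It was 46.4% in the first list part and 57% in the second. Among the 127 with an FDR under 0.001 the share was 34.6%.

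**Figure D3:**
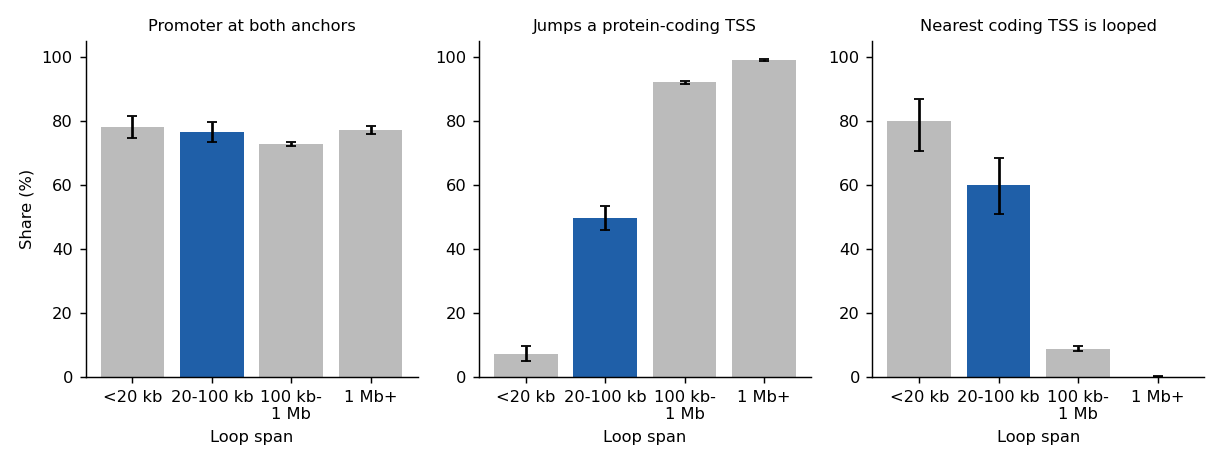
Shares in percent (y axis, from 0) of loops with a promoter at both anchors, of promoter loops that pass over a protein-coding TSS, and of distal anchors whose nearest protein-coding TSS belongs to the looped gene, by span class (x axis). Bars are shares and whiskers Wilson 95% intervals, and local loops, in blue, stand at 76.8%, 49.7% and 60.2%.

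The loops that passed over the most genes, among those of at least 4 tags, lay in dense gene clusters. In the major histocompatibility region of chromosome 17, the loop from Clic1 and Msh5 to Apom and Bag6 (85.3 kb, 7 tags) passed over 12 protein-coding genes, among them Ddah2 and the Ly6g6 genes. Clic1 encodes a chloride channel protein, Msh5 a meiotic mismatch repair homolog and Bag6 a chaperone. A shorter loop from the same anchor to Csnk2b and Gpank1 (71.2 kb, 7 tags) passed over 9. The loop from Pcgf1, a Polycomb subunit, to Dctn1, a dynactin subunit (87.5 kb, 9 tags), passed over 10. On chromosome 3 the loop from Mtmr11 and Sf3b4, a splicing factor, to the histone gene Hist2h4 (91.0 kb, 7 tags) passed over 9, most of them other histone genes. Zbtb4 to Plscr3 (80.6 kb, 7 tags) and Znhit2 to Sac3d1 and Snx15 (56.8 kb, 7 tags) each passed over 8. The loop from Ptbp1, a splicing repressor, to Arid3a, a DNA-binding protein, passed over 8 in both list parts, with 7 tags at 72.8 kb in the first and 5 tags at 73.0 kb in the second. The loops of Clic1 share an anchor and those of Ptbp1 join the same genes, so they are not separate examples.

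Among the 15 local loops with the most tags, all 15 were of the first list part, 11 joined promoters and 6 passed over a protein-coding TSS. The last place was tied between 3 loops of 23 tags, of which Nr1d1 to Msl1 was counted, and Hoxc10 to Hoxc8 (25.5 kb) and a loop between promoters of Kctd1 (86.6 kb) were not. The strongest, at 49 tags, joined the Bahcc1 promoter to an anchor 25.1 kb away inside the gene. A further 32 tags joined the Bahcc1 promoter to that of the noncoding RNA gene 2810410L24Rik (46.4 kb), and the second list part held the same contact with 6 tags at 47.1 kb. Bahcc1 had 5 local loops in all with 102 tags, 72.3% of its tags at all spans.

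Hes1, which encodes a transcriptional repressor acting downstream of Notch receptors, had 1 local loop of 38 tags. It ran 58.6 kb to the promoter of the noncoding RNA gene 4632428C04Rik and passed over no protein-coding TSS. These 38 tags were 16.9% of the tags of Hes1 at all spans, so most of its contacts were of another length.

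Other strong pairs joined genes of unlike roles. Stat6, a transcription factor of interleukin 4 signaling, was joined to Nab2, a corepressor of EGR factors, and Nemp1 with 29 tags (24.3 kb). Naca, a subunit of the nascent polypeptide-associated complex, was joined to the cochaperone gene Ptges3 with 27 tags (24.3 kb). Zbtb7b, a zinc finger transcription factor, was joined to Cks1b, a cyclin-dependent kinase partner, and the adaptor gene Shc1 with 26 tags (26.9 kb), over Flad1 and Lenep. All 3 spans were near the lower limit. The longest of the 15 was the loop from Ubtf, a factor of ribosomal RNA transcription, to Slc25a39, a mitochondrial carrier, with 25 tags at 90.7 kb over Rundc3a and Slc4a1. The loop from Akt1s1, a subunit of the mTOR complex, and Tbc1d17 to Ptov1 had 24 tags (20.7 kb). Nr1d1, the clock repressor Rev-erb alpha, was joined to Msl1, a subunit of a histone acetyltransferase complex, with 23 tags (20.4 kb).

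At 479 of the 530 promoter pairs both anchors had a protein-coding gene, at 46 only one did and at 5 neither did. For 226 pairs with exactly 1 protein-coding gene at each end, the genes ran in tandem in 110 (48.7%, 42.2 to 55.2), convergently in 63 (27.9%) and divergently in 53 (23.5%). The intervals of the convergent and divergent shares overlapped. No share expected from gene orientation alone was computed, so tandem order is not a finding about these loops. Both ends came within 2 kb of TSSs of the same gene in 17 loops, which may thus join alternative promoters. Other genes can lie at the same anchors. The second Bola1 anchor also held Hist2h2ab, Hist2h2ac and Hist2h2be, and that of Hdlbp also held Sept2. Those loops cannot be assigned to 1 gene. Examples were Bola1 with 15 tags (23.5 kb) and Dleu2 with 13 tags in the first list part and 8 in the second. Others were the RNA-binding protein gene Hdlbp with 11 tags (33.5 kb) and the kinase gene Abl1 with 9 (72.1 kb). Pairs of genes with the same symbol stem, a naming rule and not a measure of homology, accounted for 35 loops. Outside the Hox clusters these included the ephrins Efna1 and Efna3 (8 tags, 41.4 kb) and the anchoring protein gene Akap8 with Akap8l (12 tags, 29.3 kb).

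In the 136 loops with a single promoter, the other anchor was distal, at least 2 kb from any TSS. Of the 113 loops that had a protein-coding gene at the promoter, the distal anchor lay inside the gene in 29, upstream in 45 and downstream in 32, with 7 mixed because the promoter anchor held several genes. The protein-coding TSS nearest to the distal anchor belonged to a looped gene in 68 (60.2%, 51.0 to 68.7). This was so for 80.0% of distal anchors under 20 kb and for 8.95% at 100 kb to 1 Mb, again an order that the spans themselves favor. With a promoter window of 5 kb, which leaves 92 such loops, the share was 72.8%. The 109 distinct distal anchors lay a median of 14 kb from the nearest TSS, and 42 were in the body of a protein-coding gene.

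After Bahcc1, the strongest of these loops joined Gpr108 and Trip10, an adaptor of membrane curvature and the cytoskeleton, to an anchor 26.8 kb away with 29 tags. The midpoint of that anchor was 3.55 kb from the TSS of Vav1, a blood cell guanine nucleotide exchange factor that was not looped to it. With the promoter window of 5 kb the anchor would itself count as a promoter of Vav1. Nfib, a nuclear factor I gene active in mesenchyme, was joined to an anchor 28.9 kb away inside the gene with 26 tags. Irf2bpl, a transcriptional regulator, had 19 tags to an anchor 81.5 kb downstream and 16 tags to another 59.4 kb downstream. Those anchors were joined to each other with 19 tags (22.2 kb), so that the 3 elements formed a closed triangle.

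One distal anchor inside Rara, the retinoic acid receptor alpha gene, was shared by 2 genes. It had 17 tags to the Rara promoter (31.5 kb) and 16 tags to the promoter of Cdc6 (45.7 kb), a DNA replication licensing factor, over the Rara TSS. Tnrc6c, which acts in microRNA silencing, had 17 tags to an upstream anchor (35.2 kb), and the forkhead gene Foxk1 had 16 tags to another (34.4 kb). A loop of 20 tags from the noncoding gene Gm49539 (25.0 kb) completed the 10 strongest.

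The 24 loops with no promoter at either end had 187 tags in all. The strongest was on chromosome 15, joining chr15:85656236-85658330 to chr15:85676553-85680757 with 24 tags (21.4 kb), and the protein-coding TSSs nearest to its anchors were of Wnt7b, a Wnt ligand, at 74.8 kb and of Ppara, a nuclear receptor, at 56.3 kb. The right anchor was also joined with 9 tags to a distal anchor 67.3 kb away and 28.9 kb from the TSS of Wnt7b. No local loop reached the promoter of either gene. The TSS nearest to the left anchor of the strongest loop was that of the noncoding gene Lncppara, at 3.67 kb from its midpoint. The second list part held 1 loop matching the strongest, with 6 tags. Its left anchor was wider (chr15:85651690-85658330) and counted as a promoter of a noncoding gene, so this counterpart was not itself promoterless. The Irf2bpl pair followed with 19 tags. Loops of 12 tags lay near Ptma on chromosome 1 (61.8 kb), near Cstad on chromosome 2 (49.2 kb), near Klrb1c on chromosome 6 (37.5 kb) and beside Sox1 on chromosome 8 (99.5 kb). Loops of 9 tags lay inside Dnm3 (26.7 kb), near Gadd45g (66.9 kb) and beside Sox1 again (29.0 kb).

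Loops that shared or overlapped an anchor were joined into networks, which gave 363 networks over 971 merged anchors. A single loop made up 238 of them and 21 held 5 or more loops, with 181 loops between them. Loops of both list parts occurred in 60. The largest was on chromosome 7, with 23 loops, 228 tags and 14 anchors over 310.0 kb, all 23 between promoters of 21 protein-coding genes. In it Ap2a1, a clathrin adaptor subunit, had 8 loops of 7 to 10 tags each (67 tags in all), and Prmt1, an arginine methyltransferase, had 6 loops with 53 tags, the strongest of 20 tags to the GTPase gene Rras and Scaf1 (29.5 kb).

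The HoxC network had 16 loops with 238 tags, and the HoxB network 14 loops with 97 tags. Hox genes encode the homeodomain factors that set position along the body axis. In HoxC the strongest local loops were Hoxc12 to the anchor of Hoxc10 and the start of an annotated Hoxc5 transcript (46 tags, 28.1 kb), Hoxc11 to Hoxc9 (39 tags, 23.9 kb) and Hoxc12 to Hoxc9 (29 tags, 40.8 kb). The merged anchor of Hoxc9, which also holds Mir196a-2, had 7 loops with 112 tags. Among them, a loop to Hoxc11 (27.8 kb) and a loop to Hoxc5 and Hoxc6 (28.4 kb), of 4 tags each, ended at an overlapping anchor without a promoter. In HoxB the strongest was Hoxb4 to Hoxb2 and Hoxb3 (15 tags, 28.6 kb). No local loop had an anchor at a HoxA or HoxD gene. Those clusters were not without loops, since 28 HoxA and 33 HoxD loops of 100 kb to 1 Mb were listed, none with more than 5 tags.

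**Figure D4:**
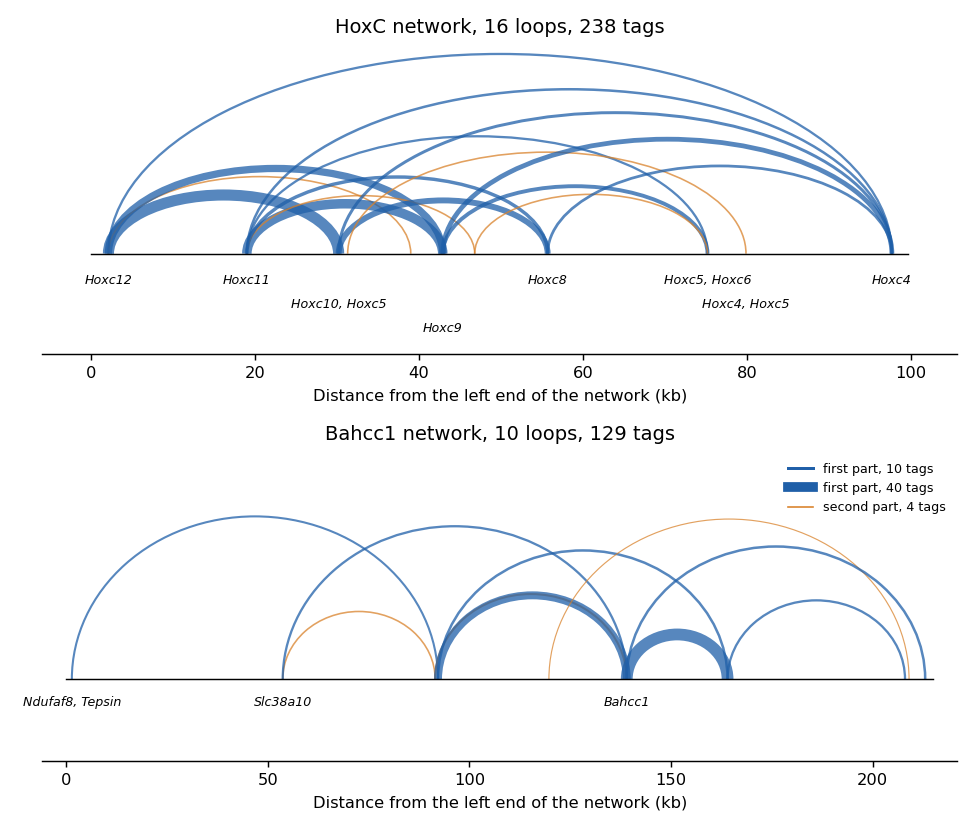
Local loops of the HoxC network (16 loops, 238 tags) and the Bahcc1 network (10 loops, 129 tags) as arcs over distance from the left end of each network (kb, x axis), with arc width rising with tags and color giving the list part. Protein-coding genes are named at the anchors, and the thick arcs of HoxC lie between Hoxc12 and Hoxc8 while those of Bahcc1 meet at its promoter.

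The HoxB network had 6 loops in the first list part and 8 in the second. The Zic2 network on chromosome 14, named for a zinc finger factor of neural patterning, had 15 loops with 91 tags. Of its loops, 13 were in the second list part. Its strongest loop, from Gm5089 to Zic2 over Zic5, was in the first (17 tags, 26.1 kb). An anchor in it with no protein-coding promoter had 6 loops. The rest of the 8 largest were those of Bahcc1 (10 loops, 129 tags) and of Mknk2, an eIF4E kinase, and Klf16 on chromosome 10 (8 loops, 88 tags). They also included those of Ubtf and the progranulin gene Grn (8 loops, 77 tags) and of the Hist2h histone genes and Bola1 (8 loops, 65 tags). Networks of Ptbp1 and Arid3a (8 loops, 63 tags) and of Sox1 (8 loops, 55 tags) came next. The Sox1 network had no loop with promoters at both ends. In it the Sox1 promoter, of a neural SoxB factor, had 2 loops, with 9 tags over 65.9 kb and 7 tags over 82.8 kb.

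Few loops were listed in both parts with both anchors overlapping. Of the 473 local loops of the first part, 38 (8.03%, 5.91 to 10.8) had a counterpart in the second, and 38 of 217 (17.5%, 13 to 23.1) the other way. Under 20 kb the shares were 22.1% and 34.4%, and at 100 kb to 1 Mb 7.60% and 8.13%. The first-part loops with a counterpart had a median of 11.5 tags, against 9 for the rest. The 10 with the most tags that recurred began with Hoxc11 to Hoxc9 (39 tags, and up to 8 in the second part) and 2810410L24Rik to Bahcc1 (32 and 6). Next were Hoxc12 to Hoxc9 (29 and 4), Ubtf to Slc25a39 (25 and 2) and the promoterless pair on chromosome 15 (24 and 6). The counterpart of that pair had a promoter at 1 anchor. Nr1d1 to Msl1 (23 and 4) was the sixth. They continued with Foxq1 to Foxf2, a pair of forkhead genes (18 and 3), Agpat1 and Rnf5 to Ppt2 and Prrt1 (17 and 5), the nearer Irf2bpl anchor (16 and 4) and Ing1 to Ankrd10 (15 and 4). The loop of 49 tags inside Bahcc1, that of 46 tags at Hoxc12 and that of Hes1 had no counterpart.

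The paired CTCF motifs that mark many loop borders were not a feature that could be resolved here. An exact match to the CTCF core consensus pointed inward from both anchors in 2 of 690 loops and outward in 1. With up to 1 mismatch these were 39 (5.65%) and 38 (5.51%), a difference of 0.145 points (-2.32 to 2.61). Inward and outward pairs were thus not distinguishable at this number.

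The local loops had an anchor at 1000 of 21911 protein-coding genes (4.56%), or 9.97% of the 10035 with a loop of any span. Of the 185 genes of sarcomagenesis activated transcription (SAT), defined by single cell RNA-seq of other mouse SyS tumors against control cells in a paper associated with the study, 12 were reached (6.49%, 3.75 to 11). Of the 371 genes of maintained active transcription (MAT), the comparison set, 15 were reached (4.04%, 2.47 to 6.56). The shares differed by 2.44 points (-1.28 to 7.22), and both intervals took in the 4.56% of all protein-coding genes. The SAT and MAT genes also differed in how many had a loop of any span, at 104 of 185 and 283 of 371. Among these, 12 of 104 and 15 of 283 were reached, beside the 9.97%, a comparison that was not tested. Without the Hox clusters the number of SAT genes reached was 6. Loops of SAT genes and of MAT genes had a median of 8 tags, the same as all local loops.

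The SAT genes were led by Hox genes, with Hoxc5 at 108 tags, Hoxc4 at 56, Hoxb4 at 40, Hoxb3 at 38, Hoxc6 at 25 and Hoxb9 at 3. Much of the Hoxc5 total came from the transcript that starts beside Hoxc10, whose tags cannot be divided between the genes. Outside the clusters, Efna3, an ephrin ligand, had 18 tags, to Zbtb7b (10 tags, 72.0 kb) and to Efna1. Sox1 had 16 tags, to distal anchors. Hmga2, an architectural chromatin protein, had 11 tags to a distal anchor 47.4 kb away. Sp9, a limb and forebrain factor, had 7 tags to Ola1 (59.5 kb). The carbonic anhydrase gene Car14 and the cohesin regulator gene Cdca5 (sororin) had 4 tags each. Among MAT genes the most tags were at Agpat1 (31), an enzyme of phosphatidic acid synthesis, the RNA polymerase III subunit gene Polr3gl (28), the repressor gene Zbtb7a (27), St7l (26), Tnrc6c (25) and the small Maf factor gene Mafg (21).

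Among the pathway and complex lists, the share of genes reached was highest for Hox genes, at 16 of 39 (41.0%, 27.1 to 56.6). All 16 lay in the HoxB and HoxC networks, where loops share anchors, so these genes are not independent. A loop of any span was listed at 34 of the 39. The share reached was 9 of 23 (39.1%, 22.2 to 59.2) for AP-1 and immediate early genes, which respond within minutes to signals. Of those 23 genes, 21 had a loop of any span. Both shares stand beside 4.56% of all protein-coding genes and 9.97% of those with any loop, and were not tested. All 10 local loops of the AP-1 and immediate early genes had promoters at both ends, with a median of 8 tags. Jund, an AP-1 subunit, had 18 tags, all to Lsm4 and found in both list parts. Btg2, an antiproliferative gene, had 14 tags (20.3 kb), Ier5 had 10 (38.8 kb), and Fos, another AP-1 subunit, had 8 tags to Tmed10 (98.1 kb). Myc had 4 tags.

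Notch pathway genes had a loop of any span in 17 of 23 cases. Beside the 4.56% of all protein-coding genes and the 9.97% of those with any loop, 6 of 23 were reached (26.1%, 12.5 to 46.5). Beside Hes1, these were Hey1, a related repressor, with distal anchors 99.9 kb (13 tags) and 51.6 kb (8 tags) away, the coactivator gene Maml3 (22 tags in 3 loops), Lfng, a glycosyltransferase that modifies Notch receptors (20 tags, to Grifin), the receptor gene Notch4 (5 tags) and the ligand gene Jag1 (3 tags). The other 17 genes of the list, receptors and ligands among them, had no local loop. Wnt pathway genes were reached in 1 of 60 cases, the receptor gene Fzd2 with 22 tags in 2 loops. FGF pathway genes were reached in 1 of 28, Fgf11 with 12 tags. BMP and TGF-beta genes were reached in 4 of 39 (10.3%, 4.06 to 23.6), among them the inhibitor gene Id1 (11 tags, to H13) and its relative Id3 (8 tags, to a distal anchor 73.6 kb away). The intervals of the Wnt, FGF and BMP shares all took in the 4.56% of all protein-coding genes, so these counts are not results about the lists.

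Of other homeobox and patterning factors 8 of 57 (14%) were reached, among them Zic2 (42 tags), Msx1 (14 tags, 71.3 kb) and the Hox cofactor gene Meis1, whose loops of 8 tags (29.1 kb) and 5 tags (73.3 kb) to distal anchors were both in the second list part. Of mesenchymal factors 4 of 49 (8.16%) were reached, namely Nfib (26 tags), Foxf2 (21 tags), Tead3 (15 tags, to Rpl10a) and Nfic (9 tags). Collagen and matrix genes were reached in 2 of 44 cases (4.55%), Lamb2, a laminin chain, and Mmp14, a membrane matrix protease, and Sox genes in 1 of 18. The collagen, matrix and Sox shares stood near the 4.56% of all protein-coding genes. The interval for mesenchymal factors (3.22 to 19.2) took in that value, and the interval for homeobox and patterning factors (7.29 to 25.3) lay above it. Of the 57 homeobox and patterning genes, 36 had a loop of any span. Of those, 8 of 36 were reached, beside 9.97% of all protein-coding genes with any loop, and no interval was computed for that share.

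Polycomb subunits were reached in 6 of 35 cases (17.1%, 8.10 to 32.7). Pcgf2 had 20 tags, of which 13 went to Mllt6 (36.2 kb), and Bcor, a subunit of a variant PRC1, had 12. Ezh2, the H3K27 methyltransferase, had 9 tags to a distal anchor 55.7 kb away. BAF subunits were reached in 4 of 31 (12.9%, 5.13 to 28.9), with Bicral at 18 tags, Actb at 16 tags to the actin bundling gene Fscn1 (56.6 kb), Arid1b at 14 tags to a distal anchor 86.5 kb away in both list parts, and Arid1a at 5. Cell cycle and growth genes were reached in 5 of 32 (15.6%, 6.86 to 31.8), with Cdkn1b, an inhibitor of cyclin-dependent kinases, at 17 tags to Gpr19 (22.2 kb), E2f1 at 10 and Cdkn1a at 8. Nearly all Polycomb and BAF genes had a loop of some span (33 of 35 and 29 of 31), as did 24 of 32 cell cycle and growth genes. The intervals of all 3 lists lay above the 4.56% of all protein-coding genes. They took in the 9.97% of protein-coding genes with any loop, a share that leaves out genes without a loop.

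As markers of other cells that a hindlimb tumor may hold, 22 immune, 15 endothelial and 22 skeletal muscle genes were looked up. None had a local loop, with Wilson upper limits of 14.9%, 20.4% and 14.9%, all above the 4.56% of all protein-coding genes, so lists of this size could be at 0 without standing apart. Loops of any span were listed at 1, 5 and 3 of them.

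**Figure D5:**
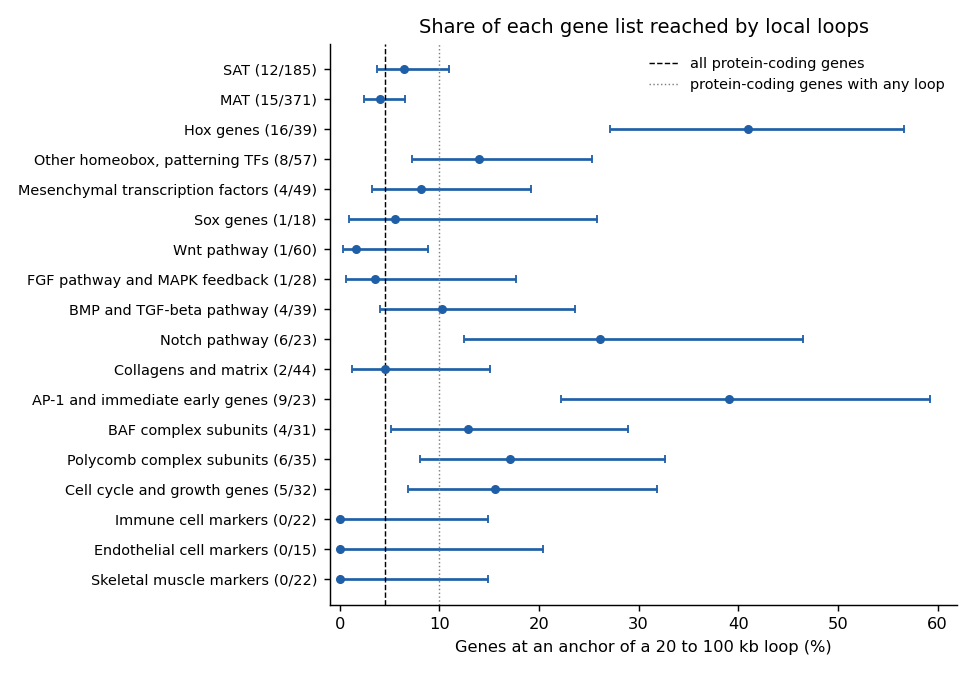
Share of the genes of each list with an anchor of a local loop (percent, x axis), with Wilson 95% intervals and the number reached over the number with a TSS beside each name. The dashed line is the 4.56% of all protein-coding genes and the dotted line the 9.97% of those with any loop, and the points for Hox genes (41.0%) and AP-1 and immediate early genes (39.1%) lie farthest to the right.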

How the data were processed

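H3K27ac HiChIP of 2 hSS2 tumors was analysed. The authors cut chromatin with MboI, aligned read pairs to mm10 (HiC-Pro), took loops from hichipper, which runs Mango, at an FDR under 0.05 (a legend names 0.01), and merged the tumors. Only 15.2% of the listed loops had an FDR under 0.01, so the list was not cut at that value. The deposited list gives a whole-number count of tags per loop, not normalized, and the FDR that the authors' caller assigned, an adjusted p-value. How tags were merged is not given in the sources used here. The depth was 41574 tags over 24244 loops, so the precision of a single loop is low. PCR copies are not independent molecules.

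Anchors were annotated with the TSSs of GENCODE vM21 (GRCm38, which shares the coordinates of mm10). A loop was found in the other list part when both anchors overlapped by at least 1 base. Spans, classes and networks were computed in Python 3.11.15 with pandas 2.3.3 and scipy 1.17.1, and tested on simulated data, where all 600 planted loops got their class and span back (100.0%). Shares have Wilson and differences Newcombe 95% intervals. The members and gene lists were chosen with earlier results of these data known. SAT and MAT genes are the lists the study used. Named genes were those at the 15 strongest loops, the 10 strongest with one promoter, the 10 strongest with none and the 10 strongest in both list parts, at the 8 largest networks and the 8 loops over the most TSSs with at least 4 tags, the 12 SAT and 6 MAT genes with the most tags, and up to 4 genes per list. Genes given beyond these, such as other SAT, Notch or AP-1 genes, pairs of one gene or family, and loops at the span limits, were chosen after their values were seen. The alternatives were promoter windows of 1 kb and 5 kb, protein-coding or RefSeq TSSs, FDR under 0.01 or 0.001, at least 4 tags, each list part alone, merging of loops at the same anchors, anchors of 4 kb, spans between inner edges, no Hox clusters, midpoints within 5 kb and 1 CTCF mismatch. Other assays of the series were not analysed here.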

Additional observations from a re-analysis of the deposited data

How the results depend on the processing

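Under 15 alternatives 32 values moved, a share or the median by leaving its 95% interval and a number by over 1.5 times. Many other values could not move, since span, tags, networks, recurrence and CTCF motifs do not depend on the promoter settings. The number of loops was 232 and 132 at an FDR under 0.01 and 0.001 and 217 in the second list part alone. The median of 8 tags became 12 and 14 at these FDRs, 9 in the first part and 4 in the second. Promoters at both anchors had a share of 82.5% in the first part, 64.5% in the second, 80.7% with a window of 5 kb and 69.4% with protein-coding TSSs. The share with a promoter at one anchor was 14.6%, 30.9%, 16.7% and 23.0% in the same order, and that with none was 7.54% with protein-coding TSSs. Loops over a protein-coding TSS were 44.3% with a window of 5 kb, 40.4% and 34.6% at the 2 FDRs, 57% in the second part and 53.8% with spans between inner edges. Nearest TSSs were of the looped gene in 72.8% with a window of 5 kb. Recurrence was 3.50% and 2.46% at the 2 FDRs, which also leave fewer loops in the second part to match. Convergent CTCF motifs were found in 0% of the second part and in 5.65% with 1 mismatch. SAT genes reached were 5 at an FDR under 0.001, 7 in the second part and 6 without the Hox clusters. Networks numbered 159 and 99 at the 2 FDRs and 161 in the second part. Stricter FDRs and single parts hold fewer loops by construction; for the other shifts the cause was not tested. No paired analysis was possible because no value of the merged list is labelled with a tumor, although the list parts may be the tumors. With counts of 2 to 49 tags and a median of 8, depth limits what can be said of any 1 loop.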

Other observations

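Local loops were spread unevenly over chromosomes, in part as all loops of the list were. Chromosome 11 held 98 of the 690 (0.803 per Mb) and chromosome 17 held 72 (0.758 per Mb), which were 3.76% and 3.70% of the 2606 and 1945 loops listed there, close to chromosome 3 (3.77%), chromosome 14 (3.90%) and chromosome 7 (3.57%). Shares were lower on chromosome 9 (0.893% of its 784 loops) and chromosome 4 (0.929% of its 1400). The X chromosome held 4 local loops (0.0234 per Mb, 1.35% of its 297 loops). The list parts divided the chromosomes differently. On chromosome 5, 40 local loops were of the first part and 7 of the second, and on chromosome 10, 41 and 8. The order was turned on chromosome 8 (9 and 21), chromosome 9 (2 and 5), chromosome 14 (8 and 19, with 13 of the latter in the Zic2 network) and chromosome 19 (14 and 19). Loops of all spans were likewise fewer in the first part on these chromosomes, with 530 and 937 on chromosome 8, 319 and 465 on chromosome 9, 249 and 444 on chromosome 14, and 483 and 610 on chromosome 19. These splits were not tested.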
